A study of Mus musculus with 6 samples.

Results

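The fibroblast growth factors (FGFs), the hepatocyte growth factor (HGF) and their receptors were examined in cultured lymphatic endothelial cells (LEC) of mouse fibrosarcomas and mouse tail skin. The family was taken as 10 named mouse genes, of 18193 genes with a probe set of their own on the array: the ligands Fgf1, Fgf2, Fgf7, Fgf10 and Fgf18, the receptors Fgfr1, Fgfr2 and Fgfr3, and Hgf with its receptor Met. They have 21 of the 45101 probe sets, counting only probe sets annotated to a single gene, and each gene was given the value of its probe set with the highest mean over the 6 arrays. Tumour LEC (3 arrays) were isolated from T241/VEGF-C/GFP fibrosarcomas borne by C57BL/6 mice. T241 is a fibrosarcoma line, VEGF-C drives the growth of lymphatic vessels, and GFP is a fluorescent marker protein. The normal dermal LEC (3 arrays) came from tail skin of female C57BL/6 mice aged 8 weeks. Cells of both kinds were cultured on gelatin in an endothelial growth medium before RNA was taken, and the labels describe selection with antibodies to LYVE-1, although their text is not clear on the last steps for the tumour cells. The age and sex of the tumour-bearing mice are not given. Whether replicates stand for different cultures or mice is not in the labels, and the p-values speak only of the spread among these arrays. With so few arrays all values have limited precision.

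FGFs are secreted proteins that bind receptor tyrosine kinases together with heparan sulphate chains on the cell surface. The receptors signal through docking proteins and the MAP kinase cascade, which switches on its own inhibitors of the Sprouty, Spred and Dusp families. FGF7 and FGF10 are made mainly by mesenchymal cells and act on the epithelial splice form of FGFR2, FGF1 and FGF2 act on many cell types including endothelium, and HGF is made by mesenchymal cells and acts through MET. Both families are known to promote growth and migration of lymphatic endothelial cells.

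Of the 10 genes, Fgf7, Fgfr1 and Met were clearly above background on all arrays of at least 1 group. The brighter of the 2 Fgf7 probe sets was at background in all 3 tumour arrays and at 9.06 to 11.61 in the 3 normal arrays (log2 expression), while the dimmer one was just above background in tumour replicate 1. Fgfr1 and Met were above background on all 6 arrays, with overlapping groups. Fgfr2 was above background on a single normal array, and Fgf1, Fgf2, Fgf10, Fgf18, Fgfr3 and Hgf were at background on all 6 arrays. The 4 genes bright enough to be tested did not pass. Background here means a value at or below the highest of 27 control probe sets for absent bacterial RNA on the same array, a limit of 3.40 to 3.71.

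The 4 genes with a mean above the filter for low values (the 40th percentile of all probe sets, 2.71) were Fgf7, Fgfr1, Fgfr2 and Met, and only these were tested. Of them 0 passed the threshold of 0.05 (limma, two-sided p with Benjamini-Hochberg adjustment over 12954 genes), where 0.216% of all genes tested passed, and 1, Fgf7, had an unadjusted p under 0.05, where 15.5% of all genes did. The tumour arrays lay wholly below the normal arrays for 1 of the 4, again Fgf7, where 11.6% of all genes tested did, and in either direction 32.4% of all genes separated the groups. The median difference over the 4 genes was -0.58 and that over all genes tested 0.03 (log2, tumour minus normal).

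**Figure D1:**
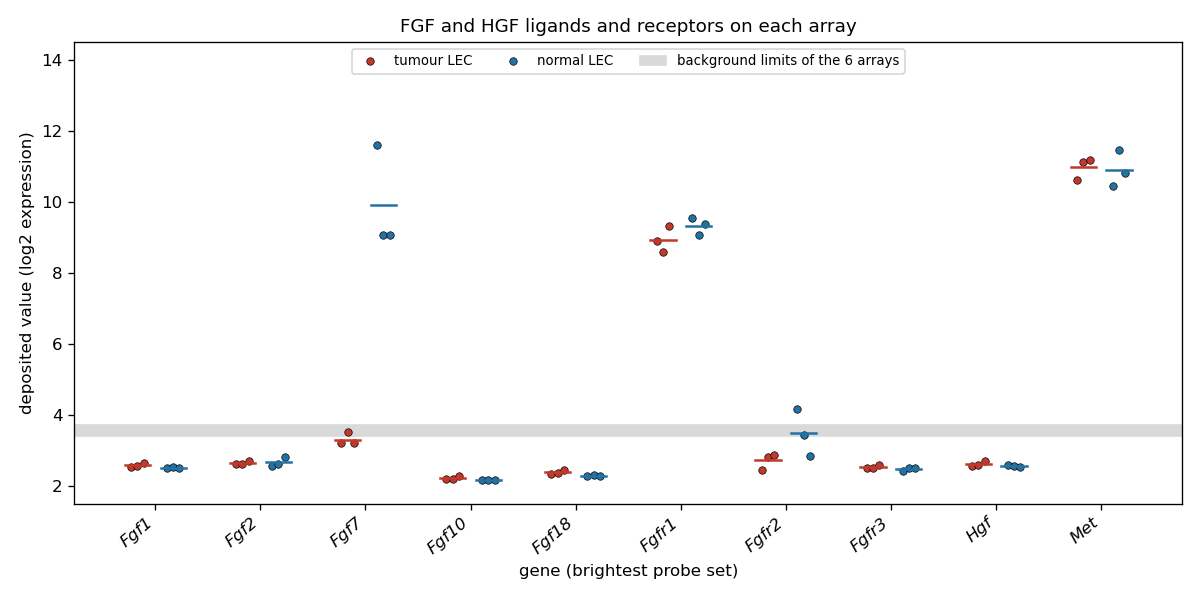
Deposited log2 expression of the 10 genes on each array, tumour LEC in red and normal LEC in blue, with a horizontal line at each group's mean and a grey band over the background limits of the arrays (3.40 to 3.71). Fgf7 is the gene whose groups stand far apart, Fgfr1 and Met overlap well above the band, and the other genes lie in or below it apart from Fgfr2 in normal replicate 1.

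The arrays and the cells were checked against markers before the genes were compared. The LYVE-1 gene Lyve1 read 14.11 to 14.91 in tumour LEC and 13.65 to 14.32 in normal LEC, and Prox1, the regulator of lymphatic fate, 7.77 to 8.92 in tumour LEC and 7.73 to 8.30 in normal LEC. Of 7 lymphatic markers on the array 6 were above background in both groups, and Mmrn1 was at background on all arrays. The pan-endothelial marker Pecam1 read 8.08 to 8.86 in tumour LEC and 5.59 to 8.22 in normal LEC. Cdh5 read 11.52 to 11.65 in tumour LEC and 9.62 to 11.37 in normal LEC. Of 12 pan-endothelial markers 10 had a positive difference and 0 passed. Of the 12, 2 had an unadjusted p under 0.05 (limma), where 15.5% of all genes tested did. Their median difference was 0.96, the log2 summed level was 14.58 to 15.28 in tumour LEC and 13.22 to 14.44 in normal LEC, and 11 of the 12 had their lowest normal value in replicate 1. The part of these markers in the results was not tested. Fibroblast markers differed between the groups and among the normal arrays. Of 14 such genes, 13 had their highest normal value in replicate 1. The log2 of their summed level was 13.31 to 14.19 in tumour LEC and 15.08 to 16.36 in normal LEC. In tumour LEC Thy1 and S100a4 were the brightest, and the other 12 read 2.18 to 6.97 there and 2.32 to 14.29 in normal LEC. On background limits, 3 of the 14 were at background on all tumour arrays and 0 on all normal arrays. Leukocyte markers were highest in tumour replicate 1 for 11 of 14 genes, with a log2 summed level of 11.02 to 12.94 in tumour LEC and 10.92 to 12.27 in normal LEC. Among them Ptprc read 3.06 to 5.92 in tumour LEC and 2.96 to 3.36 in normal LEC. Cd68 read 4.82 to 10.88 in tumour LEC and 8.45 to 9.57 in normal LEC. Of 9 keratinocyte markers 6, Krt14 among them, were at background on all arrays. Krt5, Krt10 and Epcam were above background on all 6 arrays. Krt5 read 3.82 to 4.46 in tumour LEC and 3.73 to 3.81 in normal LEC. Krt10 read 6.76 to 6.95 in tumour LEC and 7.09 to 7.17 in normal LEC. Epcam read 3.56 to 4.21 in tumour LEC and 3.58 to 4.56 in normal LEC. Krt10 and Epcam were added here with their values in view. The log2 summed level of the 9 keratinocyte markers was 7.53 to 7.58 in tumour LEC and 7.64 to 7.72 in normal LEC. Pericyte and smooth muscle markers had a log2 summed level of 11.38 to 14.11 in tumour LEC and 12.42 to 14.15 in normal LEC. Among them Acta2 read 10.66 to 13.28 in tumour LEC and 12.22 to 13.96 in normal LEC. Mesothelial markers had a log2 summed level of 7.42 to 9.44 in tumour LEC and 9.45 to 12.23 in normal LEC. Of 5 mesothelial markers tested 2 passed, Msln (-5.04, SE 0.22, limma, adjusted p = 0.00402) and Krt19 (-4.51, SE 0.39, adjusted p = 0.0276), both lower in tumour LEC. Both were at background on all tumour arrays, at least 24.0-fold lower for Msln and 13.6-fold for Krt19 by the group means. Of all genes tested 0.216% passed. The mesothelial markers Upk3b, Wt1 and Lrrn4 were at background on all arrays, and the groups overlapped for Krt8 and Krt18. Apart from Msln, the mesothelial markers were named after their values were seen.

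Among the ligands, Fgf7 was the only one above background on any array. FGF7, also called keratinocyte growth factor, is a secreted factor through which mesenchymal cells of the skin act on the epidermis. Its value was 3.20, 3.50 and 3.20 in tumour replicates 1, 2 and 3, against 11.61, 9.07 and 9.06 in normal replicates 1, 2 and 3 (log2 expression). The tumour arrays lay together at background, the normal arrays were all far above it, and normal replicate 1 was the highest by more than 2 log2 units. Tumour LEC averaged 3.30 ± 0.18 and normal LEC 9.91 ± 1.47 (SD, n = 3 each), and the difference was -6.61 (SE 0.73, 95% interval -8.42 to -4.81). With values at background raised to the limit of their arrays, the group means differed by at least 81.0-fold for this probe set and at least 2.75-fold for the dimmer one, both lower in tumour LEC. These bounds allow for the floor and not for the spread among arrays. With the mean of its probe sets the Fgf7 difference was -4.18, smaller than the bound of the brighter one. Fgf7 ranked 34 of 12954 genes by p and 7 by the size of a difference below 0, but its adjusted p of 0.0550 missed the threshold (limma). Without normal replicate 1, the array with the highest level, the difference shrank to -5.77 but passed (limma, adjusted p = 0.00176). The normal arrays left in that fit lay close together, at 9.07 and 9.06.

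The call for Fgf7 depended on the setting. It also passed with a stricter filter at the 60th percentile (limma, adjusted p = 0.0261), with an intensity trend and robust variance (0.0447) and with arrays weighted by quality (0.0257). It did not pass in the other 11 alternatives, and over all 15 the difference ranged from -7.04 to -4.18 and the adjusted p from 0.00176 to 0.228. The second Fgf7 probe set was dimmer and above the background limit of tumour replicate 1. It read 3.78, 3.19 and 3.20 in tumour replicates 1, 2 and 3, against 6.98, 4.11 and 4.31 in normal replicates 1, 2 and 3. Its groups did not overlap either and normal replicate 1 was again the highest, with a difference of -1.74 (SE 0.81, limma over all probe sets, adjusted p = 0.414).

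Fibroblast markers are given beside Fgf7 because they also differed between the groups. The median of the 14 fibroblast markers, taken as a deviation from each gene's mean over the 6 arrays, was -1.49, -1.96 and -2.23 in tumour replicates 1, 2 and 3, against 4.01, 0.96 and 1.07 in normal replicates 1, 2 and 3. The deviations of Fgf7 itself were -3.41, -3.10 and -3.41 in tumour LEC, against 5.00, 2.46 and 2.46 in normal LEC. Both were lowest on the tumour arrays and highest in normal replicate 1. Pdgfra, a receptor on mesenchymal cells, read 4.66 to 5.74 in tumour LEC and 9.13 to 11.75 in normal LEC, and Col1a2, a chain of type I collagen, 2.76 to 3.61 in tumour LEC and 11.69 to 14.29 in normal LEC. The list was not uniform. Of its 14 genes 12 had the tumour arrays below the normal ones, where 11.6% of all genes tested did, and Lum overlapped. Thy1, a surface protein also called CD90, read 12.97 to 13.67 in tumour LEC and 12.58 to 12.83 in normal LEC (0.67, SE 0.21, limma, adjusted p = 0.240). Lum and Thy1 were named after their values were seen. Of the 14, 1 passed, Col1a2 (limma, adjusted p = 0.0276), where 0.216% of all genes tested passed. Col1a2 passed in 9 of 15 alternatives. In such bulk RNA, fewer cells of a type and less RNA per cell cannot be told apart, and the part of fibroblast markers in the Fgf7 difference was not tested.

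Likeness was measured as the root mean square difference between mean-centred log2 profiles over the 6 arrays, for members above background on some array whose values ranged over at least 2 log2 units, which only Fgf7 did (8.41). The nearest of the genes tested was Loxl1, a lysyl oxidase that cross-links elastin, at 0.17 log2 units. Loxl1 read 2.92, 2.96 and 2.75 in tumour replicates 1, 2 and 3, against 10.99, 8.49 and 8.21 in normal replicates 1, 2 and 3. It is also on the fibroblast marker list. The next was Pcdh19, a protocadherin, at 0.36 log2 units, which read 2.25 to 2.39 in tumour LEC and 8.55 to 10.49 in normal LEC. Pcdh19 was lower in tumour LEC by a difference of -7.00 (SE 0.51, limma, adjusted p = 0.0234). It was at background on all tumour arrays, at least 53.3-fold lower by the group means. It passed in 9 of 15 alternatives, with an adjusted p of up to 0.189, and as it was chosen for a profile like that of Fgf7 this is a description.

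**Figure D2:**
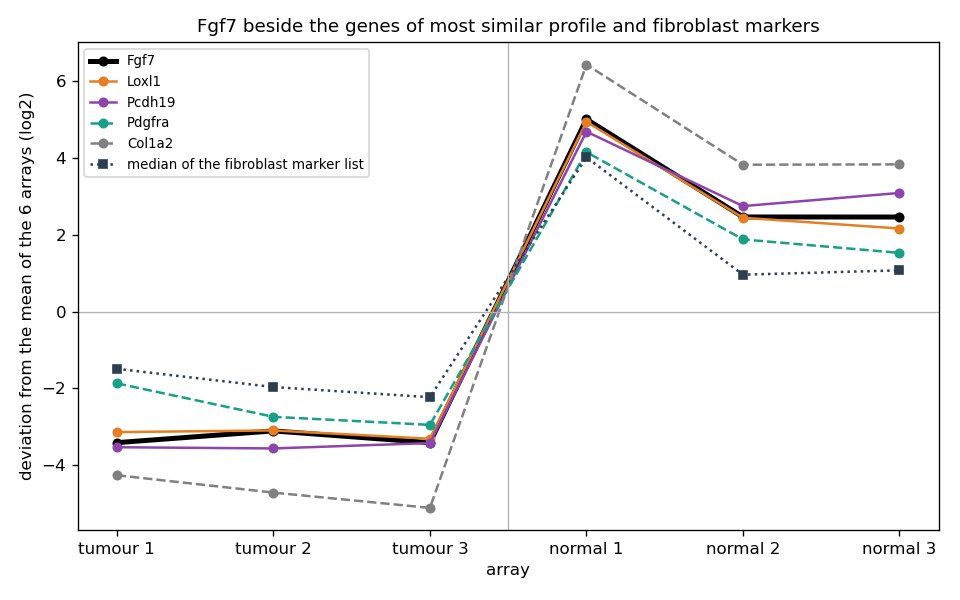
Deviation of each gene from its mean over the 6 arrays (log2) for Fgf7, its nearest genes Loxl1 and Pcdh19, the fibroblast markers Pdgfra and Col1a2, and the median of the fibroblast marker list (dotted), by array. All the lines are below 0 on the tumour arrays and above 0 on the normal arrays, with their highest point in normal replicate 1.

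The promoters of Fgf7 and Met are shown, 1 ligand and 1 receptor with signal in these cells. MET is the receptor of HGF and not of FGF7. Of the 4 family genes tested, Fgf7 was the only one whose groups stood apart and Met had the smallest difference. Each window runs from 250 bases before to 50 bases after the gene's start on the + strand, from RefSeq on GRCm38.p6, at chr2:126034408-126034707 for Fgf7 and chr6:17463707-17464006 for Met. Capitals mark the letters of the TATA box TATAAA, of the CCAAT box or of the GC box GGGCGG, each searched on both strands.
Fgf7: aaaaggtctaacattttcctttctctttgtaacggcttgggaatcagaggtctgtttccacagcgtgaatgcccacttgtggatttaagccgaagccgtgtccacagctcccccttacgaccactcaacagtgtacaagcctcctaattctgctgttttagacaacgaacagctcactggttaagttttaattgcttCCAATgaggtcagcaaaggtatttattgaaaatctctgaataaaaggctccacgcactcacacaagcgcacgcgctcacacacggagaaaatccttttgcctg
Met: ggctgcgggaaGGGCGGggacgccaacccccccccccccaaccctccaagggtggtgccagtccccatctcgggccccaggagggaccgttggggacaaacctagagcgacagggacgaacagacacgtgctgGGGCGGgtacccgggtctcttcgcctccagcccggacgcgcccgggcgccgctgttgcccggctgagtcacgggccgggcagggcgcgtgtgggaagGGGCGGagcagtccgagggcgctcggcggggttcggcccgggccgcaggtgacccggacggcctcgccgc
The Fgf7 window held 1 CCAAT, 53 bases before the start, and 11 CpG dinucleotides, and the Met window held 3 GGGCGG, 239, 117 and 20 bases before the start, and 34 CpG dinucleotides. Neither held TATAAA, and no marked letters overlapped. Of 32851 promoter windows of this length 37.4% held CCAAT, 35.7% held GGGCGG and 13.6% held TATAAA, and the median window had 7 CpG dinucleotides. A match is a description of the letters only. Of the 10 genes 8 were found in the promoter table.

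The other ligands gave no signal above background. FGF1 and FGF2 are broadly acting growth factors for endothelium, FGF10 is a mesenchymal factor that shares its receptor form with FGF7, and FGF18 is a factor of bone and lung development. Fgf2, with a single probe set, read 2.61, 2.62 and 2.69 in tumour replicates 1, 2 and 3, against 2.56, 2.60 and 2.81 in normal replicates 1, 2 and 3. The groups overlapped and the highest value was in normal replicate 3. Fgf1 read 2.54 to 2.64 in tumour LEC and 2.51 to 2.52 in normal LEC, and its 2 further probe sets were dimmer. Fgf10 read 2.20 to 2.28 in tumour LEC and 2.17 to 2.18 in normal LEC, and Fgf18 2.33 to 2.45 in tumour LEC and 2.27 to 2.31 in normal LEC. Over the 6 genes at background on all arrays the group differences lay between -0.02 and 0.10. The groups did not overlap for Fgf1, Fgf10, Fgf18 and Fgfr3, with the tumour arrays above, and 5 of the 6 genes read highest in tumour replicate 3. With no filter, 46.4% of all genes separated the groups in either direction. The bacterial controls had a median of 2.77 on that array, of 2.59 and 2.61 on the other tumour arrays and of 2.56 on each normal array. A probe set at background does not show that the RNA was absent, and none of these 6 genes was tested.

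Among the FGF receptors, Fgfr1 was the one with signal in both groups. FGFR1 is the receptor through which FGF2 acts on endothelial cells. It read 8.91, 8.59 and 9.33 in tumour replicates 1, 2 and 3, against 9.56, 9.07 and 9.39 in normal replicates 1, 2 and 3. The groups overlapped, with tumour replicate 3 above normal replicate 2. Tumour LEC averaged 8.94 ± 0.37 and normal LEC 9.34 ± 0.25 (SD, n = 3 each), a difference of -0.39 (SE 0.24, 95% interval -0.98 to 0.19, limma, adjusted p = 0.464). A second probe set of Fgfr1 read 5.00 to 5.04 in tumour LEC and 5.31 to 5.44 in normal LEC. Its groups did not overlap, and its difference of -0.36 had a smaller error (SE 0.08) but did not pass either (limma over all probe sets, adjusted p = 0.189). The third probe set was above background on 1 normal array only and differed by -0.05. Over 15 alternatives the Fgfr1 difference ranged from -0.66 to -0.045. It was -0.66 with array weights, -0.27 with the mean of its probe sets and -0.22 without tumour replicate 2. The value of -0.045 came without probe sets ending in _s_at, _x_at or _a_at, where the third probe set was read.

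Fgfr2, the receptor of FGF7 and FGF10 in its epithelial form, was near or below background. It read 2.45, 2.82 and 2.88 in tumour replicates 1, 2 and 3, against 4.17, 3.44 and 2.85 in normal replicates 1, 2 and 3. Only normal replicate 1 was above its background limit, the array with the highest fibroblast markers, whose part in this value was not tested. The difference was -0.77 (SE 0.35, 95% interval -1.65 to 0.11, limma, adjusted p = 0.370), and without normal replicate 1 it was -0.43. The array's other probe sets for Fgfr2 were at background on all arrays, and splice forms were not told apart. Fgfr3, whose product is known in human lymphatic endothelium as a receptor under the control of PROX1, was at background with both its probe sets. The brighter read 2.50, 2.51 and 2.60 in tumour replicates 1, 2 and 3, against 2.42, 2.49 and 2.49 in normal replicates 1, 2 and 3.

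Of HGF and its receptor, the receptor alone gave signal. Met encodes the receptor tyrosine kinase for HGF. It read 10.63, 11.14 and 11.19 in tumour replicates 1, 2 and 3, against 10.44, 11.46 and 10.82 in normal replicates 1, 2 and 3. The groups overlapped fully, with both the lowest and the highest value among the normal arrays. Tumour LEC averaged 10.98 ± 0.31 and normal LEC 10.91 ± 0.52 (SD, n = 3 each), and the difference was 0.08 (SE 0.31, limma, adjusted p = 0.896). Its 95% interval, -0.69 to 0.84, leaves room for a difference of either sign, and its sign changed when tumour replicate 3 or normal replicate 1 was left out. The other Met probe set was at background on all arrays, at 3.01 to 3.02 in tumour LEC and 3.02 to 3.18 in normal LEC. Hgf was at background with all 3 of its probe sets, the brightest of which read 2.57, 2.59 and 2.69 in tumour replicates 1, 2 and 3, against 2.59, 2.56 and 2.52 in normal replicates 1, 2 and 3.

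**Figure D3:**
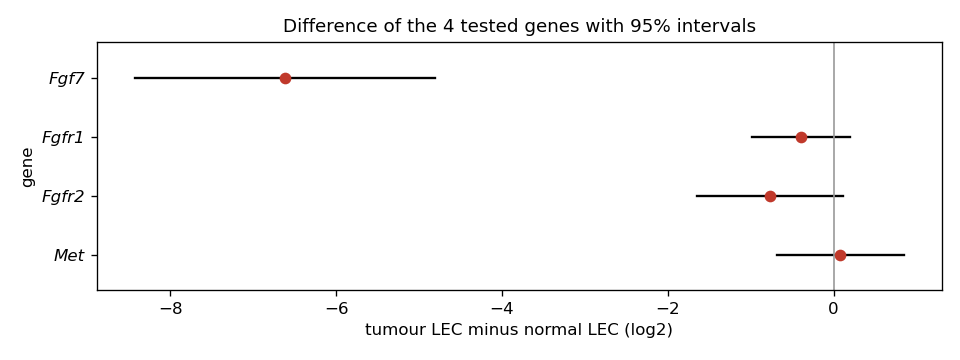
Difference between tumour and normal LEC (log2, tumour minus normal) for the 4 genes tested, with 95% intervals from the limma fit over all genes. The interval of Fgf7, -8.42 to -4.81, lies far from 0, and those of Fgfr1, Fgfr2 and Met include it.

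Further genes of both pathways were taken as 6 lists, apart from the 10 genes above. Of their 82 genes tested 1 passed, Cdh2, which was lower in tumour LEC, where 0.216% of all genes tested passed. Unadjusted, 19 of the 82 (23.2%) had a p under 0.05, 14 with the tumour value lower and 5 with it higher, beside 8.83% and 6.66% of all genes tested. The groups did not overlap for 16 genes with the tumour arrays below and 13 with the tumour arrays above, beside 11.6% and 20.9% of all genes tested. The lists' median differences are given below beside the median of 0.03 over all genes.

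The co-receptors and binding proteins of FGFs had the lowest median of the 6 lists, -0.79 over 15 genes tested, 5 of them positive. Of the 15, 0 passed above normal and 1 passed below, where 0.216% of all genes tested passed in either direction. Cdh2, or N-cadherin, an adhesion molecule that binds FGFR1 at the cell surface, read 3.15, 2.84 and 2.92 in tumour replicates 1, 2 and 3, against 9.66, 8.05 and 8.79 in normal replicates 1, 2 and 3. It was at background in tumour LEC, at least 38.3-fold lower by the group means (-5.86, SE 0.41, limma, adjusted p = 0.0202), and highest in normal replicate 1. Its adjusted p rose above the threshold when all genes were tested without a filter (0.0505) and was 0.0758, 0.106, 0.189 and 0.0924 without tumour replicates 1, 2 and 3 and normal replicate 3. Sdc1, a heparan sulphate proteoglycan of the syndecan family, read 8.17, 8.71 and 7.80 in tumour LEC, against 10.81, 10.26 and 10.76 in normal LEC. The arrays of each group lay close together, and the difference of -2.38 (SE 0.28) came near the threshold (limma, adjusted p = 0.0577). Gpc1, or glypican 1, another such proteoglycan, read 3.95 to 4.54 in tumour LEC and 5.61 to 6.22 in normal LEC, with a difference of -1.79 (SE 0.24, adjusted p = 0.0765). Sdc1 and Gpc1 each passed in 2 of 15 alternatives, the 60th percentile filter (limma, adjusted p = 0.0305 and 0.0442) and array weights (0.0264 and 0.0221).

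Other members of that list, named after their values were seen, went several ways. Fgfrl1, a receptor-like protein without a kinase domain, differed by -0.75 (SE 0.21) with separated groups, and Sdc2 by -1.64 (SE 0.36). Nrp1, or neuropilin 1, read 8.50, 5.36 and 3.67 in tumour LEC, against 10.22, 9.00 and 9.07 in normal LEC. The tumour arrays were uneven, and the difference of -3.59 had an SE of 1.24. Gpc4 (-0.05, SE 0.26), Hspg2 or perlecan (0.14, SE 0.26) and Sdc3 (0.27, SE 0.28) had overlapping groups. Fgfr4 was at background on all arrays.

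**Figure D4:**
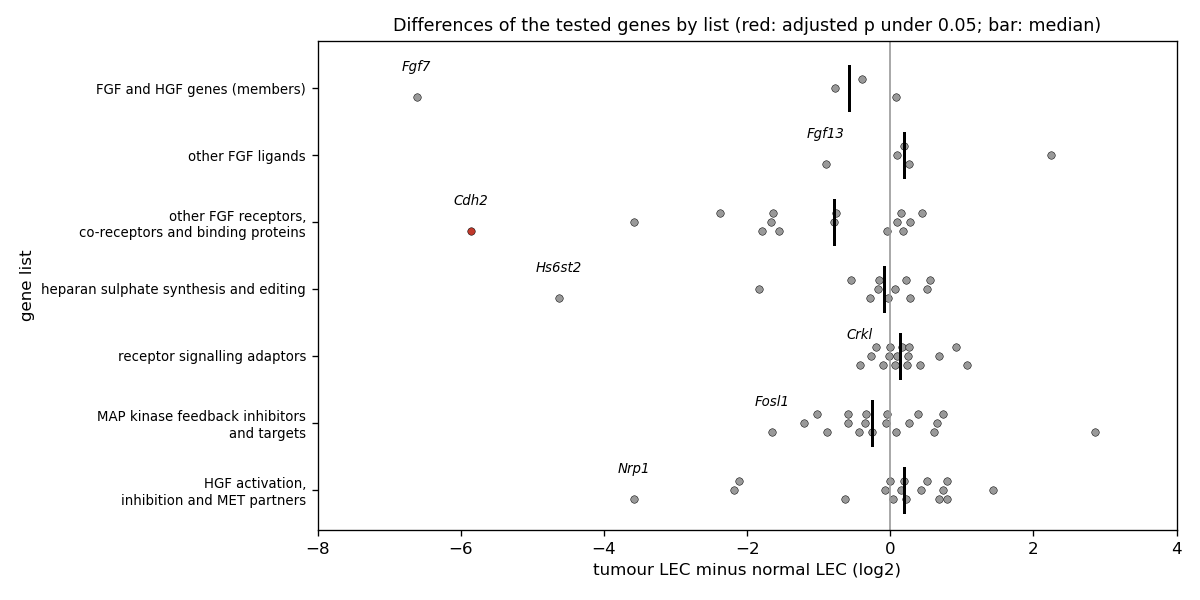
Difference between tumour and normal LEC (log2, tumour minus normal) of each gene tested, by list, with a black bar at the list's median and the gene with the lowest difference named. Cdh2, in red, is the gene past the threshold, and Fgf7 lies farther from 0 than any other gene drawn.

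The enzymes that build and edit heparan sulphate had a median of -0.09 over 12 genes. Of the 12, 0 passed in either direction and 3 had an unadjusted p under 0.05 (limma), where 15.5% of all genes tested did. Hs6st2, a sulphotransferase that adds sulphate at the glucosamine 6 position, stood apart from the rest. It read 4.03, 3.15 and 2.10 in tumour replicates 1, 2 and 3, against 8.56, 6.77 and 7.85 in normal replicates 1, 2 and 3. It was above background on 1 tumour array and all normal arrays, with a difference of -4.63 (SE 0.65, limma, adjusted p = 0.0778), at least 15.7-fold by the group means. It passed in 2 of 15 alternatives, the 60th percentile filter (adjusted p = 0.0442) and array weights (0.0245), with an adjusted p of up to 0.228 in the others. With the mean of its probe sets the difference was -2.40, smaller than this bound, which holds for the brightest probe set. Hs2st1, a sulphotransferase acting on uronic acid, differed by -0.55 (SE 0.17) and Extl3, which starts the chain, by 0.51 (SE 0.14), both with separated groups and neither past the threshold (adjusted p = 0.243 and 0.211).

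The adaptors and kinases between the receptors and MAP kinase, with 16 of 23 listed genes measured here, had a median of 0.13. Of the 16, 0 passed in either direction and 2 had an unadjusted p under 0.05 (limma), where 15.5% of all genes tested did. These were Gab2, a docking protein, which read 10.01 to 10.74 in tumour LEC and 9.22 to 9.75 in normal LEC (0.92, SE 0.25), and Sos2, an exchange factor for Ras, which read 8.74 to 9.85 in tumour LEC and 7.72 to 8.27 in normal LEC (1.08, SE 0.35). Crkl, an adaptor, had the next smallest p (-0.42, SE 0.18). Grb2, the adaptor that joins receptors to Sos proteins, differed by 0.17 (SE 0.15), Sos1 by 0.00 (SE 0.09) and Gab1, the docking protein of MET, by 0.69 (SE 0.33).

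The feedback inhibitors and targets of MAP kinase signalling had a median of -0.25 over 19 genes, and 0 passed in either direction. Of the 19, 5 had an unadjusted p under 0.05 (limma), 3 below and 2 above. Of all genes tested 8.83% had such a p below and 6.66% above. Etv5, a transcription factor induced by FGF signalling, read 5.90, 5.73 and 5.86 in tumour replicates 1, 2 and 3, against 6.97, 7.34 and 6.77 in normal replicates 1, 2 and 3. The tumour arrays were close to each other and wholly below the normal ones, and the difference was -1.20 (SE 0.17, limma, adjusted p = 0.0778). Fosl1, an AP-1 subunit, differed by -1.65 (SE 0.30) and Spred2, an inhibitor of the Ras cascade, by -0.89 (SE 0.21). Each passed in 1 of 15 alternatives, array weights (limma, adjusted p = 0.0316 for Etv5, 0.0240 for Fosl1 and 0.0328 for Spred2). With the mean of probe sets the difference shrank to -0.57 for Etv5 and -0.17 for Spred2.

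Of the 19 genes 7 had a positive difference. Others of the list are named here after their values were seen. Spry1, or Sprouty 1, read 7.94, 8.96 and 10.64 in tumour replicates 1, 2 and 3, against 7.10, 6.08 and 5.76 in normal replicates 1, 2 and 3. All tumour arrays were above all normal arrays, with a difference of 2.86 (SE 0.75, limma, adjusted p = 0.196). Ier3 also had all tumour arrays above, at 12.27 to 12.74, against 11.73 to 11.86 in normal LEC. Its difference was 0.66 (SE 0.16, limma, adjusted p = 0.173). Spry4 differed by 0.73 (SE 0.34), Dusp6, a phosphatase of ERK, by 0.61 (SE 0.37), Spry2 by 0.08 (SE 0.34), Etv4 by -0.35 (SE 0.24), Phlda1 by -0.59 (SE 0.60), Flrt3 by -0.59 (SE 0.32) and Dusp4 by -1.02 (SE 0.78), all with overlapping groups.

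The genes around HGF had a median of 0.19 over 17 tested, and 0 passed in either direction. Of the 17, 4 had an unadjusted p under 0.05 (limma), all below, where 8.83% of all genes tested did. Cd44, a hyaluronan receptor whose splice forms can act as co-receptors of MET, read 9.88, 10.82 and 10.03 in tumour replicates 1, 2 and 3, against 12.65, 12.38 and 12.06 in normal replicates 1, 2 and 3. The groups did not overlap, and the difference was -2.12 (SE 0.30, limma, adjusted p = 0.0778). It passed in 2 of 15 alternatives, the 60th percentile filter (0.0469) and array weights (0.0433). Itgb4, an integrin subunit that associates with MET, differed by -2.19 (SE 0.70) with overlapping groups, and Plxnb2, a semaphorin receptor of the plexin B family, by -0.64 (SE 0.21). Of the proteins that cleave the HGF precursor, named after their values were seen, Hgfac was at background on all arrays and Plau, or urokinase, read 7.81, 6.64 and 8.03 in tumour LEC, against 4.65, 6.84 and 8.63 in normal LEC. Other proteases of the list, also named so, were mixed. Klkb1 and F12 were at background on all arrays. St14 read 3.99 to 5.50 in tumour LEC and 3.43 to 4.79 in normal LEC. Hpn read 4.54 to 4.88 in tumour LEC and 4.48 to 4.52 in normal LEC. Plat read 8.93 to 11.52 in tumour LEC and 8.32 to 9.16 in normal LEC. These 3 were above background on all 6 arrays. Furin, which cleaves the MET precursor, differed by -0.07 (SE 0.12).

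**Figure D5:**
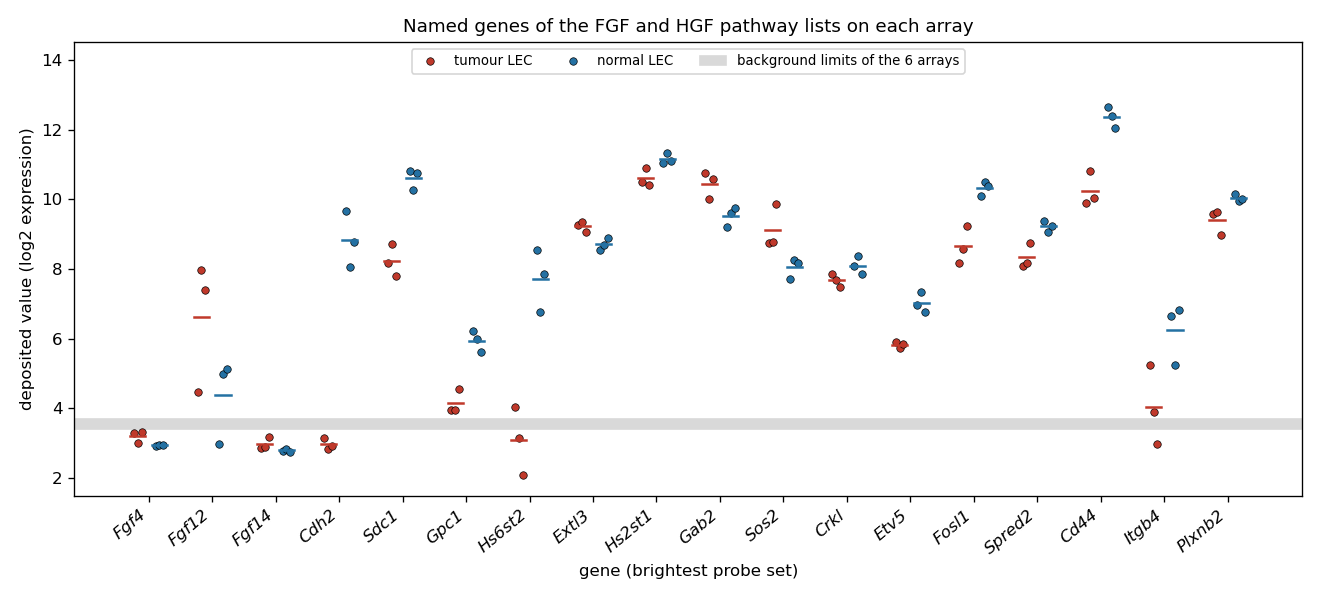
Deposited log2 expression on each array of the 3 genes with the smallest p in each of the 6 lists, tumour LEC in red and normal LEC in blue, with a line at each group's mean and a grey band over the background limits (3.40 to 3.71). Cdh2 is in the tumour arrays below the band and in the normal arrays at 8.05 to 9.66. The tumour arrays lie wholly below the normal ones for Cdh2, Sdc1, Gpc1, Hs6st2, Hs2st1, Etv5, Fosl1, Spred2, Cd44 and Plxnb2. They lie wholly above for Extl3, Gab2 and Sos2, and for Fgf4 and Fgf14, which are at background. Of all genes tested 32.4% separated the groups in either direction, and the genes drawn were chosen by their p.

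The FGF family members outside the 10 genes were mostly dark. Of 17 further Fgf genes 15 were at background on all arrays, and the 5 tested had a median of 0.19. Of the 5, 0 passed and 0 had an unadjusted p under 0.05 (limma), where 15.5% of all genes tested did. Fgf12 and Fgf13, which encode intracellular proteins that bind sodium channels and are not secreted, were the exceptions. Fgf12 read 4.47, 7.97 and 7.40 in tumour replicates 1, 2 and 3, against 2.99, 4.99 and 5.14 in normal replicates 1, 2 and 3. Tumour replicate 1 was below normal replicates 2 and 3, and the difference of 2.24 (SE 1.09) did not pass (limma, adjusted p = 0.390). Fgf13, named after its values were seen, read 5.70, 3.43 and 2.92 in tumour replicates 1, 2 and 3, against 5.24, 4.53 and 4.99 in normal replicates 1, 2 and 3. Fgf4 and Fgf14 completed the 3 of smallest p, both with every array at background.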

How the data were processed

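RNA of cultured tumour LEC (3 arrays) and normal LEC (3 arrays) was measured on Affymetrix arrays from 50 ng of total RNA with a biotin label, per the labels' protocols. Values are on a log2 scale, 1 per probe set, as the authors deposited them after background correction, normalization and summary. The tools RMA and GCRMA are named in the submitters' processing notes. Their versions, their order and the one behind the deposited values are not given in the sources used here. Such methods draw dim signals to a floor, so differences against background are given as bounds.

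Gene names came from GEO's platform annotation, updated by Entrez identifier with a RefSeq table (GRCm38.p6), which changed 0 symbols. A single gene was listed for 34945 of 45101 probe sets, several for 932 and none for 9160, besides 64 controls. Probe sets with a mean above the 40th percentile (27018) were kept, the brightest per gene taken (12954 genes), and groups compared with limma 3.58.1 in R 4.3.3 (lmFit, eBayes, no block), a step tested on simulated data. A single gene's exact permutation test of 3 against 3 arrays cannot give a p below 0.1, so none was run. For bounds, values at background were set to the limit of their array and the group means compared, so a bound allows for the floor and not for the spread among arrays.

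The genes and lists were chosen with earlier results of these data known. All 10 genes were named, from each pathway list every gene past the threshold and the 3 with the smallest p, fixed cell type markers, and the 2 genes nearest to a member that ranged over at least 2 log2 units. Alternatives were other filters, normalizations, variance models, weights, gene summaries and probe sets, a replicate block and leaving out each array.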

Additional observations from a re-analysis of the deposited data

How the results depend on the processing

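Genes past the threshold numbered 28 with all arrays, 10 with no filter, 97 with the 60th percentile filter, 385 with array weights, 46 with the replicate block and 4 to 81 with single arrays left out. Of the 10 FGF and HGF genes 0 passed with all arrays, 1 (Fgf7) with the 60th percentile filter, 1 with trend and robust variance, 1 with array weights, and 0 to 1 with single arrays left out (1 without normal replicate 1). Members with groups apart numbered 1 of 4 tested with all arrays (32.4% of all genes), 5 of 10 with no filter (46.4%), 2 with quantile normalization (28.5%) and 2 with median centring (27.5%), Fgfr2 added in both, 2 with the mean of probe sets (32.9%, Fgfr1 added) and 1 to 3 with single arrays left out (39.2% to 46.2%). The median difference over the tested members was -0.58, became 0.058 with no filter, where all 10 genes were tested, and -0.045 without probe sets ending in _s_at, _x_at or _a_at, where Fgfr2 was not tested and Fgfr1 was read from a probe set near background, and lay between -0.73 and -0.36 with single arrays left out. The sign of Met changed without tumour replicate 3 (-0.02) and without normal replicate 1 (-0.16), within a range of -0.16 to 0.36 with single arrays left out. Among markers the sign changed for Cd68 without tumour replicate 3 (range with single arrays left out -2.50 to 0.53), for Flt4 with quantile normalization (-0.0052), median centring (-0.035), array weights (-0.28) and without tumour replicate 1 or normal replicate 1 (range -0.21 to 0.22), for Pdpn without tumour replicate 3 (range -0.080 to 0.33), for Prox1 with array weights (-0.091) and for Ptprc without tumour replicate 1 (range -0.016 to 1.41). The causes were not tested. The labels state no pairing of the arrays by replicate number, and the values did not settle it. The deviations of same-numbered arrays correlated at 0.19, 0.33 and -0.0038 across genes, and 4 of 6 arrays correlated best with their own number. With the replicate block Fgf7 stayed at -6.61 (limma, adjusted p = 0.0775). Signal near background limits 7 of the 10 genes.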
